A study of Mus musculus with 8 samples.

Results

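The genes described here code for the proteins of the cytosolic ribosome, measured in RNA of mouse cortex before and after precipitation of tagged ribosomes. They were chosen by gene symbol (Rpl or Rps with a number, the stalk genes Rplp0 to Rplp2, and Rpsa), leaving out the S6 kinase genes and Rps19bp1. The rule took 93 of the 24060 gene symbols in the files. Of these, 46 are canonical genes of the large subunit, 31 are canonical genes of the small subunit, 9 are paralogs (duplicate genes) and 7 carry a pseudogene symbol. All 77 canonical genes had values above 0 and were tested, as were 6 paralogs and 4 pseudogenes. Rpl10l, Rps27rt, Rpl34-ps1 and Rplp2-ps1 were listed at 0 in every library, and Rpl39l and Rpl31-ps12 had too few fragments to be tested.

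Each of 4 young adult mice (about postnatal day 80) gave 2 libraries of polyadenylated cortical RNA. HA IP libraries hold RNA precipitated with ribosomes that carry a hemagglutinin (HA) tag, and input libraries hold RNA of the cleared lysate before precipitation. All animals, numbered 579, 580, 581 and 595, were of the same genotype, Aldh1l1-creERT2 hemi; Ribotag het, and both sexes were used without a record of which animal was which. The Cre is expressed under regulatory sequence of the astrocyte gene Aldh1l1 and depends on tamoxifen, whose dose and timing the labels do not give. There was no library from animals without Cre or without the tag, so background of the precipitation was not measured.

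A eukaryotic ribosome joins a large and a small subunit, each built of ribosomal RNA and a set of proteins that are needed in nearly equal amounts. The messenger RNAs of these proteins are classic members of the 5′ terminal oligopyrimidine (TOP) class, which begin with a C followed by a run of pyrimidines. The kinase mTORC1 and the RNA-binding protein Larp1 control how far TOP messenger RNAs are engaged by ribosomes. Rpl22, which binds RNA on the surface of the large subunit, is the protein that carries the tag. In the RiboTag allele, Cre exchanges the last coding exon for a copy that ends in HA, and in a heterozygote the other allele stays untagged.

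To show what TOP starts look like in these genes, 30 bases around annotated transcription starts are printed for 4 genes near the top and 4 near the bottom of the HA IP over input ratios that have a single start listed. Rps6, Rpl22 and its paralog Rpl22l1 follow. The sequences are from RefSeq, build GRCm38.p6, 15 bases before and 15 bases from the start onward, on the coding strand. Capitals mark every run of a C and at least 4 further C or T letters that begins within 10 bases of the start on either side.
Rpl18 (chr7:45718056-45718085, plus strand): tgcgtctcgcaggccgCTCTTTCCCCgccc
Rpl7a (chr2:26910792-26910821, plus strand): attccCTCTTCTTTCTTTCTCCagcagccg
Rps9 (chr7:3704026-3704055, plus strand): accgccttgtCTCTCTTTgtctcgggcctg
Rpl28 (chr7:4792950-4792979, plus strand): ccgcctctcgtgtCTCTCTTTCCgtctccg
Rps12 (chr10:23787195-23787224, minus strand): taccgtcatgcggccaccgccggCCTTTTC
Rpl41 (chr10:128549154-128549183, minus strand): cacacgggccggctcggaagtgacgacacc
Rps25 (chr9:44407699-44407728, plus strand): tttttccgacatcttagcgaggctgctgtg
Rps27 (chr3:90213634-90213663, minus strand): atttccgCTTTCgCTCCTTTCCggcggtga
Rps6 (chr4:86857353-86857382, minus strand): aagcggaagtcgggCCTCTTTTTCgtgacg
Rpl22, upstream start (chr4:152324421-152324450, plus strand): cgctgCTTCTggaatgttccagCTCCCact
Rpl22, downstream start (chr4:152325711-152325740, plus strand): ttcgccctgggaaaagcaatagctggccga
Rpl22l1 (chr3:28805493-28805522, plus strand): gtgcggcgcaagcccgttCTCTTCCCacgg
Runs were found on both sides of the comparison: in the windows of Rpl18, Rpl7a, Rps9 and Rpl28, which rose in HA IP, and in those of Rps12 and Rps27, which fell. The Rps12 run is 11 bases long and continues past the printed window. In Rpl7a, C letters directly before the capitals extend the run. It was marked only from the search limit, 10 bases before the start.

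The RefSeq promoter table held a start for 57 of the 77 canonical genes, and 34 of the 57 (59.6%) had such a run of at least 5 letters, read on the coding strand only. Of all 27025 genes with a start in the table, 34.4% had one. Runs of at least 7 letters were found in 47.4% of the canonical genes and in 14.1% of all genes. Split by the comparison described next, runs of at least 5 letters were present in 10 of 19 genes that rose in HA IP, in 13 of 21 that fell and in 11 of 17 that did not pass. A run near an annotated start is a description of these letters only, since annotated starts can lie some bases from the start used in cortex.

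HA IP was compared with input within animals, on FPKM values, which express fragments per unit of gene length and sequencing depth. Each library was first scaled by a trimmed mean of M-values (TMM) factor, which puts the bulk of genes at equal level. A gene was called at a Benjamini-Hochberg adjusted p under 0.05 over the 15605 genes tested with limma. Of the 77 canonical genes, 25 rose in HA IP, 26 fell and 26 did not pass. Among all genes tested, 42.9% were called higher and 42.5% lower, and among the canonical genes 32.5% and 33.8%, both below that background. Their median log2 fold change was 0.02, against -0.00 for all genes tested, with a range of -1.52 to 1.50. After TMM scaling all 4 HA IP libraries lay above all 4 input libraries for 13 canonical genes (16.9%, against 39.9% of all genes) and below them for 14 (18.2%, against 38.8%).

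The subunits were then read apart, without a test of the difference between them. Large subunit genes had 21 higher (45.7%), 16 lower (34.8%) and 9 not passing, with a median of 0.33. Small subunit genes had 4 higher (12.9%), 10 lower (32.3%) and 17 not passing, with a median of -0.19. Beside the 42.9% higher and 42.5% lower of all genes tested, the higher share of the large subunit lay near the background after TMM scaling. That of the small subunit lay below it. The median of the large subunit exceeded that of the small subunit in every animal, by 0.54, 0.60, 0.42 and 0.54 in animals 579, 580, 581 and 595, the order of animals kept in all lists below. The plot of every canonical gene by animal shows both subunits spread on both sides of 0.

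**Figure D1:**
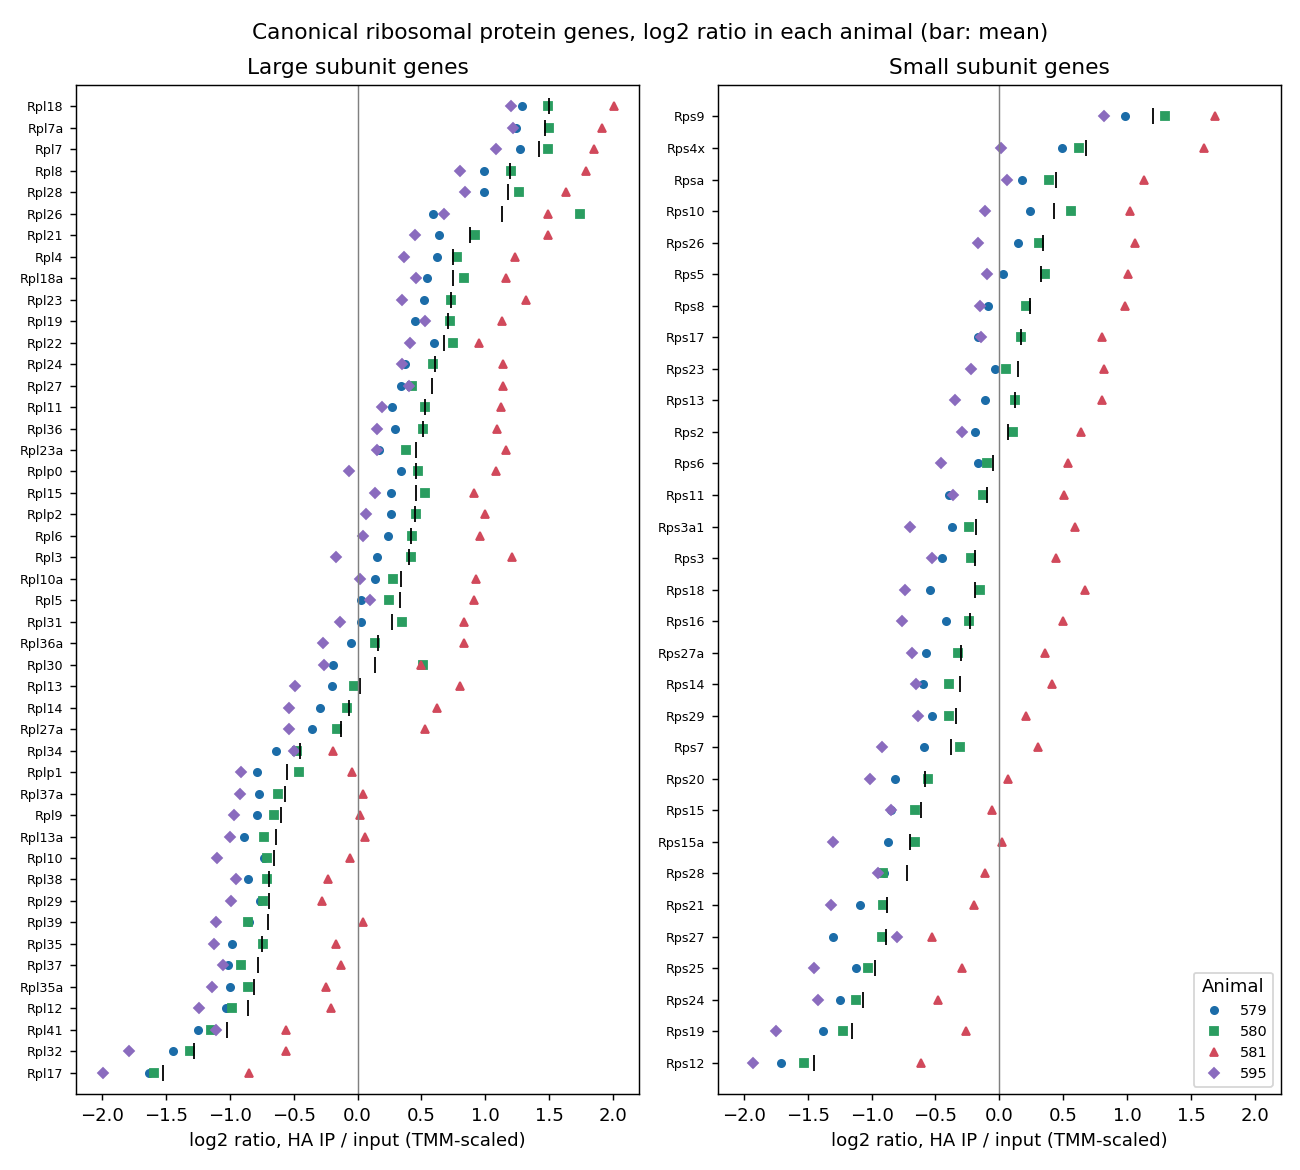
Log2 ratio of HA IP over input (TMM-scaled FPKM) for each of the 77 canonical ribosomal protein genes, with 1 symbol per animal and a bar at the mean; large subunit genes on the left, small subunit genes on the right. The order of genes is similar in the 4 animals, while animal 581 lies to the right of the others for nearly every gene.

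How many genes lie on either side depends on the scaling. TMM moved the HA IP to input ratio of every library pair up by 0.83 on average on the log2 scale relative to the deposited FPKM. On the deposited scale 4 canonical genes were higher in HA IP, 53 lower and 20 missed the threshold, around a median of -0.81, where all genes had a median of -0.75, 24.3% higher and 62.8% lower. Of the large subunit genes 8.70% were higher there and 56.5% lower, and of the small subunit genes 0% and 87.1%. Higher calls made up 50.2% of all calls after TMM scaling and 27.9% on the deposited scale. All 26 genes that fell after TMM scaling also fell on the deposited scale, whereas of the 25 that rose, 4 also rose there, 19 did not pass and 2 (Rpl15 and Rpl6) were lower. With the libraries unpaired, 19 canonical genes were higher and 24 lower (41.8% and 41.4% of all genes), and with scaling to the median canonical gene 18 were higher and 25 lower (34.5% and 36.9% of all genes). Upper-quartile scaling gave 12 higher and 38 lower (33.5% and 51.9% of all genes). These are bulk libraries, in which fewer cells of a type and less RNA per cell cannot be told apart. Nor can a ratio of HA IP to input separate RNA level in tagged cells against whole cortex from association of the RNA with ribosomes. Background of the precipitation, not measured here, may enter the ratio too.

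Among the genes that rose, Rpl18 had the highest ratio. Its FPKM on the deposited scale was 223, 262, 327 and 181 in HA IP, against 166, 171, 141 and 136 in input, so the groups did not overlap even before TMM scaling. The log2 fold change was 1.50 (SE 0.13; limma, adjusted p = 2.48e-05). Rpl7a, a large subunit protein bound to ribosomal RNA, had 372, 431, 495 and 308 FPKM in HA IP, against 287, 279, 228 and 229 FPKM in input. Its log2 fold change was 1.47 (SE 0.13; limma, adjusted p = 2.03e-05), and the groups did not overlap. Rpl7 had 305, 354, 383 and 234 FPKM in HA IP, against 230, 230, 184 and 193 FPKM in input. It changed by 1.42 (SE 0.13; limma, adjusted p = 2.62e-05), and the lowest HA IP library lay just above the highest input library. Rpl18, Rpl7a and Rpl7 were the 3 canonical genes whose HA IP libraries all exceeded all inputs in deposited FPKM. For 39 canonical genes all HA IP libraries lay below all inputs on that scale. The matching shares of all genes were not counted there.

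Rps9, a small subunit protein near the path by which messenger RNA enters, was the small subunit gene with the highest ratio. It had 354, 443, 487 and 271 FPKM in HA IP, against 327, 328, 262 and 266 FPKM in input, and its log2 fold change was 1.20 (SE 0.15; limma, adjusted p = 1.41e-04). Its lowest HA IP library, that of animal 595, lay within the input range before TMM scaling, and on the deposited scale it did not pass. Rpl8, part of the large subunit core around the peptidyl transferase center, had 387, 468, 613 and 303 FPKM in HA IP, against 354, 373, 307 and 302 FPKM in input. It changed by 1.19 (SE 0.16) with TMM scaling and did not pass without it. Rpl28 had 297, 363, 410 and 244 FPKM in HA IP, against 272, 278, 229 and 237 FPKM in input, and its log2 fold change was 1.18 (SE 0.13; limma, adjusted p = 9.66e-05). With Rpl18, Rpl7a and Rpl7, it was among the 4 genes called higher under every one of 13 settings (TMM, deposited and upper-quartile scaling, other filters and pseudocounts, no trend, no pairing, and each animal left out). All 4 were also higher with scaling to the median canonical gene, which is not among the 13. Leaving out the deposited and upper-quartile scalings, 17 canonical genes were higher in every setting. The share of all genes called in every setting was not counted.

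By fragments summed over HA IP libraries, the leading canonical genes were Rpl4, Rpl8, Rpl7a and Rpl21. Rpl4, whose loop reaches into the tunnel through which new protein leaves, summed to 71872 fragments over the 4 HA IP libraries and 70366 over the 4 inputs. Its log2 fold change was 0.75 (SE 0.14) after TMM scaling and -0.08, not passing, on the deposited scale. Rpl21 summed to 54190 fragments in HA IP and 47418 in input and had 0.88 (SE 0.16) after TMM scaling, against 0.05 and no call on the deposited scale.

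The lowest ratio belonged to Rpl17, a large subunit protein at the exit tunnel. It had 147, 198, 232 and 106 FPKM in HA IP, against 825, 1093, 725 and 730 FPKM in input, and its log2 fold change was -1.52 (SE 0.17; limma, adjusted p = 9.90e-05). Every HA IP library was far below every input library. Rps12, a protein of the small subunit head, had 127, 190, 242 and 93.1 FPKM in HA IP, against 758, 1006, 639 and 616 FPKM in input. Its log2 fold change was -1.45 (SE 0.20; limma, adjusted p = 3.22e-04). Rpl32 had 155, 211, 253 and 109 FPKM in HA IP, against 768, 961, 647 and 655 FPKM in input, and its log2 fold change was -1.28 (SE 0.19). In these genes, too, the groups did not overlap, and animal 581 was the highest and animal 595 the lowest of the HA IP libraries.

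Rps19 and Rps24 are small subunit proteins whose genes are mutated in human Diamond-Blackfan anemia. Rps19 had 95.3, 126, 175 and 59.1 FPKM in HA IP, against 450, 538, 362 and 345 FPKM in input, and its log2 fold change was -1.15 (SE 0.22; limma, adjusted p = 1.67e-03). Rps24 had 63.9, 89.1, 100 and 51.5 FPKM in HA IP, against 277, 354, 243 and 239 FPKM in input, and its log2 fold change was -1.07 (SE 0.15; limma, adjusted p = 2.80e-04). Rpl41, which codes for the shortest ribosomal protein, had 197, 255, 280 and 185 FPKM in HA IP, against 851, 1035, 716 and 692 FPKM in input. It changed by -1.02 (SE 0.13; limma, adjusted p = 1.73e-04). All 6 genes lay below input in 4 of 4 animals and were among 22 genes called lower under every one of the 13 settings. The other genes of that group were Rpl10, Rpl12, Rpl13a, Rpl29, Rpl34, Rpl35, Rpl35a, Rpl37, Rpl38, Rpl39, Rps15, Rps15a, Rps21, Rps25, Rps27 and Rps28. With scaling to the median canonical gene, Rpl34 did not pass and the other 21 were lower. Leaving out the deposited and upper-quartile scalings, the canonical genes called in every setting numbered 17 higher and 22 lower. The share of all genes called in every setting was not counted. On the deposited scale, 1 of the 13, 62.8% of all genes were lower.

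**Figure D2:**
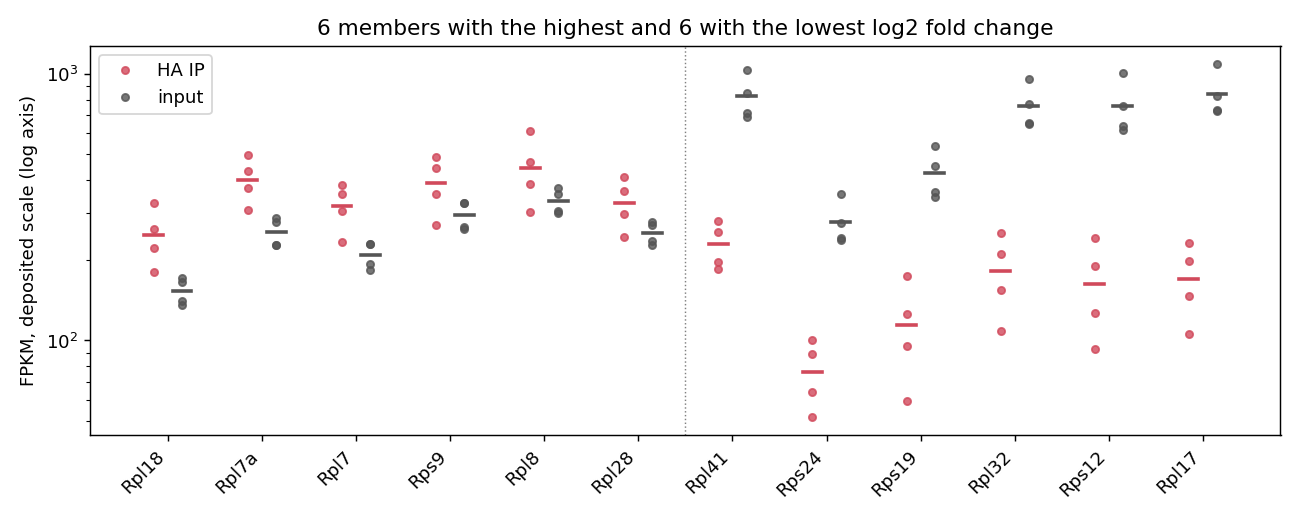
Deposited FPKM (log axis) of the 6 canonical genes with the highest and the 6 with the lowest log2 fold change, with HA IP left of input for each gene, 1 point per library and a line at the mean of 4 libraries. The lowest genes are separated on this scale, while Rps9, Rpl8 and Rpl28 overlap before TMM scaling.

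The genes of the acidic stalk, which recruits translation factors to the large subunit, did not move together. Rplp1 had 341, 495, 503 and 260 FPKM in HA IP, against 1074, 1248, 897 and 847 FPKM in input, and fell by 0.55 on the log2 scale (SE 0.15; limma, adjusted p = 0.0115). Rplp0, which anchors the stalk, rose by 0.46 (SE 0.17; limma, adjusted p = 0.0337) after TMM scaling but had -0.37 and no call on the deposited scale. Rplp2 rose by 0.45 (SE 0.15; limma, adjusted p = 0.0277) after TMM scaling but likewise had -0.38 and no call on the deposited scale. Without animal 580 neither passed (limma, adjusted p = 0.0897 for Rplp0 and 0.0844 for Rplp2). Rplp0 also did not pass without animal 579 or without animal 581. Rplp1 kept its direction and missed the threshold without animal 579 or without animal 595.

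Rpl5 and Rpl11 join the 5S ribosomal RNA and bind Mdm2, the ubiquitin ligase of p53, when ribosome assembly is disturbed. Rpl11 had 254, 344, 381 and 216 FPKM in HA IP, against 384, 437, 302 and 327 FPKM in input, so the groups overlapped. It rose by 0.53 (SE 0.16; limma, adjusted p = 0.0147) after TMM scaling and had -0.30 without a call on the deposited scale. Rpl5 had 0.33 (SE 0.14; limma, adjusted p = 0.0653) after TMM scaling and -0.50, a call in the other direction, on the deposited scale. Rpl10, which is added late in assembly and completes the active large subunit, fell by 0.65 (SE 0.16; limma, adjusted p = 5.81e-03), with 148, 177, 201 and 96.6 FPKM in HA IP, against 447, 528, 363 and 360 FPKM in input.

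On the small subunit, Rps6, the target of the S6 kinases, had 54.9, 66.1, 78.0 and 38.1 FPKM in HA IP, against 112, 130, 93.1 and 91.0 FPKM in input. The deposited values did not overlap, but after TMM scaling the log2 fold change was -0.05 (SE 0.15; limma, adjusted p = 0.760). It was called lower on the deposited scale, at -0.88, with upper-quartile scaling, at -0.46, and without animal 581, at -0.24. Rpsa, also known as the laminin receptor precursor, rose by 0.44 (SE 0.17; limma, adjusted p = 0.0413) after TMM scaling and had -0.39 without a call on the deposited scale. It did not pass without animal 580 or without animal 581. Rps27a, made as a fusion with ubiquitin, had -0.30 (SE 0.17; limma, adjusted p = 0.13). It was called lower on the deposited scale, at -1.13, with upper-quartile scaling, at -0.71, and without animal 581, at -0.52.

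Rpl22, the gene of the tagged protein, lies at chr4:152324436-152334082 (GRCm38.p6). It had 9.05, 10.6, 10.6 and 7.32 FPKM in HA IP, against 10.8, 11.4, 9.40 and 9.50 FPKM in input, means of 9.37 ± 1.54 and 10.3 ± 0.989 (SD, n = 4 each). On this scale the groups overlapped and the value was lower in HA IP in 3 of 4 animals. After TMM scaling Rpl22 rose by 0.68 (SE 0.10; limma, adjusted p = 3.37e-04), with ratios of 0.60, 0.75, 0.95 and 0.41 in the 4 animals. On the deposited scale it had -0.14 (limma, adjusted p = 0.203), so the direction of this gene rests on the scaling. By ratio it ranked 14 of 77 canonical genes, and 9, 11, 28 and 11 within the single animals.

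A comparison within each library does not depend on scaling. Relative to the median of the other canonical genes, Rpl22 stood at -4.01, -4.16, -4.47 and -3.91 in HA IP, against -4.80, -4.88, -4.75 and -4.73 in input (log2 of deposited FPKM). The difference averaged 0.65 ± 0.25 (SD, n = 4 animals) and was positive in 4 of 4 animals. A two-sided exact permutation test over animals gave p = 0.13, the smallest that 4 pairs allow. Rpl22 took 1.03%, 0.942%, 0.784% and 1.08% of the fragments of canonical genes in HA IP, against 0.580%, 0.532%, 0.612% and 0.626% in input. The length that the FPKM values imply for Rpl22, 11267 bases, exceeds its RefSeq span of 9647 bases, which is so for no other canonical gene. The height of Rpl22 below the other genes therefore depends on an uncertain length and is not interpreted. That length is the same in every library and cancels in the differences between HA IP and input. The values do not separate transcripts of the tagged and the untagged allele.

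Rpl22l1 is the paralog that can stand in for Rpl22 in mice lacking it, and its FPKM was lower in HA IP. It had 71.1, 104, 133 and 52.2 FPKM in HA IP, against 341, 402, 348 and 306 FPKM in input, and the groups did not overlap. It fell by 1.21 on the log2 scale (SE 0.17; limma, adjusted p = 3.43e-04), and by 2.04 on the deposited scale. Within libraries, the ratio of Rpl22l1 to Rpl22 FPKM, whose height rests on that same length, was 7.86, 9.82, 12.6 and 7.13 in HA IP, against 31.7, 35.2, 37.1 and 32.2 in input. Every HA IP library was below every input library. The log2 difference of this ratio was -1.90 ± 0.26 (SD, n = 4 animals), in the same direction in 4 of 4 animals, with an exact permutation p = 0.13. Both of these within-library tests, adjusted over the pair, stay at 0.13.

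**Figure D3:**
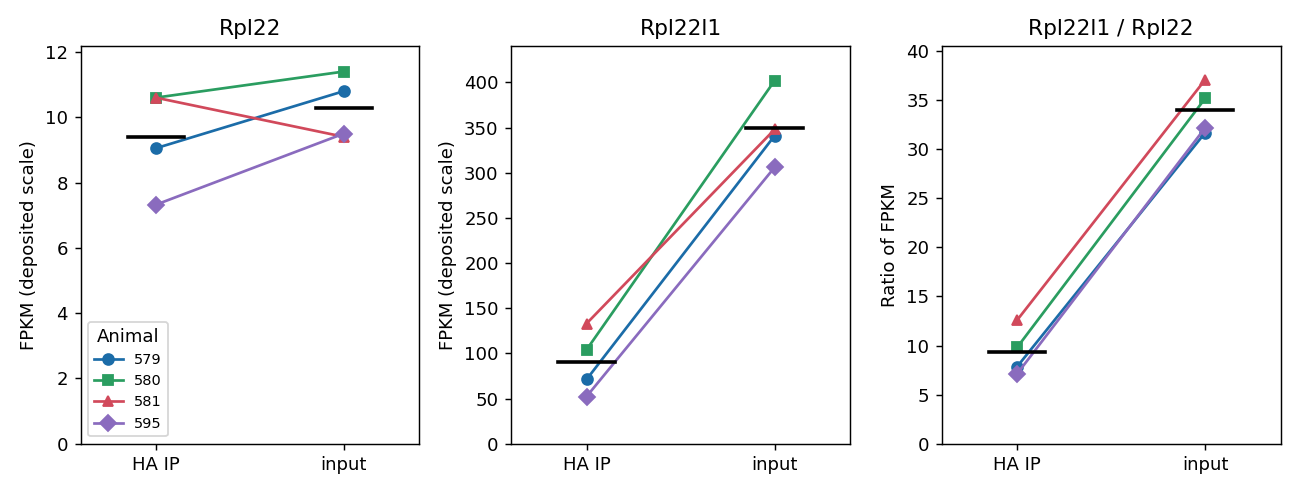
Deposited FPKM of Rpl22 (left) and Rpl22l1 (middle), and the ratio of Rpl22l1 to Rpl22 FPKM (right), in HA IP and input, with a line per animal and a black bar at the mean. Rpl22 overlaps between HA IP and input, whereas Rpl22l1 and the ratio are lower in HA IP in all 4 animals.

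Of the other paralogs, Rpl7l1, a relative of Rpl7, had 26.5, 25.5, 29.4 and 22.3 FPKM in HA IP, against 20.3, 18.1, 17.1 and 17.1 FPKM in input. It rose by 1.33 (SE 0.08; limma, adjusted p = 2.25e-06) and was also higher on the deposited scale, at 0.51. Rps4l, an autosomal relative of Rps4x, rose by 1.15 (SE 0.13) and by 0.33 on the deposited scale. Rpl36al rose by 0.92 (SE 0.10) but had 0.09 and no call on the deposited scale. Rps27l, a p53 target gene, rose by 0.50 (SE 0.07) after TMM scaling and fell by 0.33 on the deposited scale. Rpl3l, which is known from skeletal muscle and heart, was near 0 in cortex, at 0.0741 to 0.217 FPKM in HA IP and 0.0118 to 0.305 FPKM in input, and did not pass. Rpl39l had 0 to 0.184 FPKM in HA IP and 0.101 to 0.387 FPKM in input.

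Of the pseudogenes, Rpl14-ps1 and Rps19-ps3 held the most fragments. Rpl14-ps1 had 660 fragments in HA IP and 1180 in input and did not pass, at -0.15 (SE 0.17). Rps19-ps3 had 297 fragments in HA IP and 408 in input, rose by 0.31 (SE 0.10; limma, adjusted p = 0.0186) after TMM scaling and fell by 0.50 on the deposited scale. Ribosomal protein genes have many near-identical processed copies in the mouse genome. The assignment of reads that fit several copies is not described in the labels, so levels of the parent genes and copies alike are uncertain to that extent.

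As a share of the library, canonical ribosomal protein genes were lower in HA IP. They took 0.990%, 1.26%, 1.52% and 0.763% of all fragments in HA IP, against 2.09%, 2.42%, 1.73% and 1.71% in input. The groups did not overlap, and the share was lower in HA IP in 4 of 4 animals. The mean difference was -0.854 ± 0.436 percentage points (SD, n = 4 animals). A fall on this unscaled basis was not particular to these genes. On the deposited scale the median log2 fold change was -0.81 for canonical genes and -0.75 for all genes tested. Outside the 10 most abundant genes of HA IP, by fragments, which took 15.7% to 18.1% of HA IP and 1.75% to 2.50% of input fragments, the shares were 1.19%, 1.52%, 1.80% and 0.933% in HA IP, against 2.14%, 2.48%, 1.77% and 1.74% in input. Counted so, animal 581 had the higher share in HA IP. Large subunit genes took 0.703 ± 0.189% of the library in HA IP and 1.12 ± 0.184% in input, and small subunit genes 0.430 ± 0.139% in HA IP and 0.866 ± 0.152% in input (SD, n = 4 each). Within the fragments of canonical genes, the large subunit held 62.3 ± 1.35% in HA IP and 56.5 ± 0.358% in input, and its part was higher in HA IP in 4 of 4 animals.

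**Figure D4:**
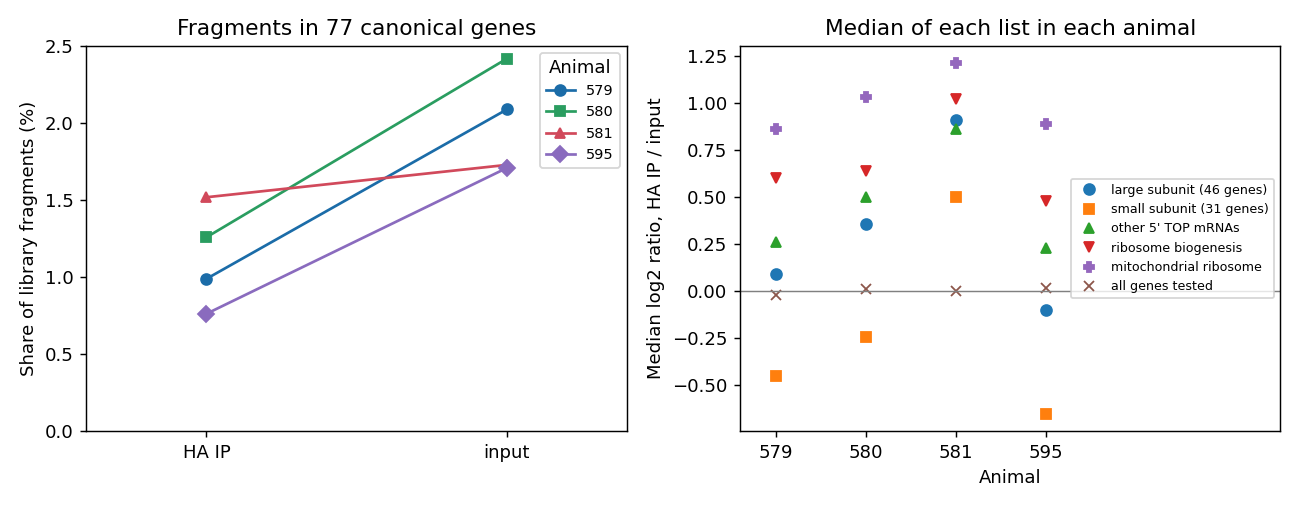
Left, share of library fragments in the 77 canonical genes (percent) in HA IP and input, with a line per animal. Right, median log2 ratio of HA IP over input (TMM-scaled) of each gene list in each animal. The share is lower in HA IP in all 4 animals, and animal 581 has the highest medians for both subunits and for other TOP, biogenesis and mitochondrial ribosome genes.

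The animals differed from each other mainly by a common shift of these genes. The median log2 ratio of the canonical genes was -0.19, -0.03, 0.64 and -0.36 in animals 579, 580, 581 and 595, while that of all genes tested lay between -0.02 and 0.02. The ratio was highest in animal 581 for 75 of the 77 genes (30.9% of all genes tested) and lowest in animal 595 for 67 (28.0% of all genes). After TMM scaling the HA IP value was highest in animal 581 for 70 genes (28.8% of all genes tested) and lowest in animal 595 for 75. The input value was highest in animal 580 for 73. For the 75 genes lowest in HA IP of animal 595 and the 73 highest in input of animal 580, the share of all genes was not computed. The SD of a gene's ratio between animals had a median of 0.43, and of 0.09 once each animal's median was subtracted, against 0.20 over all genes tested without subtraction. Without animal 581 the lower calls among canonical genes numbered 38 in place of 26, while 41.6% of all genes were lower. Without animal 580 the higher calls numbered 17 in place of 25, while 40.8% of all genes were higher.

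The order of the genes was much the same in every animal. Across the 77 canonical genes, log2 ratios of 2 animals correlated with a Pearson r of 0.95 to 0.98 and a Spearman rho of 0.95 to 0.99 over the 6 pairs of animals, against r of 0.95 to 0.97 over all genes tested. Each point shares its gene length, annotation and scaling between the animals, and genes are not independent replicates. The plot of animal 581 against animal 595, whose medians lay farthest apart, shows a displaced line with few departures. Rps4x lay above it, at 1.60 in animal 581 and 0.01 in animal 595. Rps27, 1 of the 4 canonical genes with under 5000 fragments over all libraries, lay nearest to equal ratios. These genes, and Rpl22 on the same side as Rps27, were picked from the plot.

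**Figure D5:**
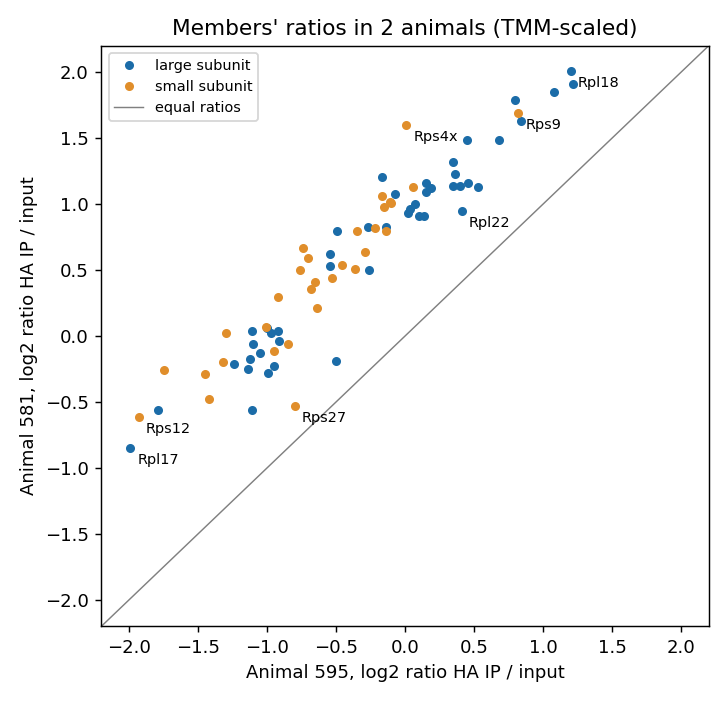
Log2 ratio of HA IP over input (TMM-scaled) of the 77 canonical genes in animal 581 (vertical axis) against animal 595 (horizontal axis), 1 point per gene, with the line of equal ratios. Every point lies above the line, and genes keep nearly the same order in both animals.

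Markers of cell types and ribosomal RNA are given beside that shift, and their part in it was not tested. The ribosomal RNA precursor Rn45s took 1.06%, 0.947%, 1.30% and 2.55% of fragments in HA IP, against 0.533%, 1.08%, 0.890% and 0.355% in input, and was highest in the HA IP library of animal 595, where the ribosomal protein share was lowest. All 12 astrocyte markers rose, with medians of 4.25, 4.35, 4.31 and 4.30 in the 4 animals, and their summed FPKM was 18416 to 20397 in HA IP and 1340 to 1518 in input. All 12 neuron markers fell, with sums of 105 to 133 FPKM in HA IP and 2524 to 2740 FPKM in input. Of the oligodendrocyte markers 9 of 10 fell and 1 rose, with sums of 17.4 to 20.9 FPKM in HA IP and 175 to 245 FPKM in input. All 10 microglia markers fell (28.3 to 36.5 FPKM in HA IP, 206 to 217 FPKM in input), as did 9 of 10 endothelial markers (3.47 to 4.91 FPKM in HA IP, 23.7 to 33.4 FPKM in input). Of the 5 erythroid markers 1 could be tested and it rose, with sums of 1.59 to 3.23 FPKM in HA IP and 0.635 to 0.697 FPKM in input. Library totals ranged from 33834388 fragments (HA IP of animal 595) to 53625125 (input of animal 595).

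Genes that act with the ribosomal proteins were read from the same fit, beside the same background of 42.9% higher and 42.5% lower, or 24.3% and 62.8% with a median of -0.75 where no TMM scaling was applied. Fau, which yields a small subunit protein, rose by 0.37 (SE 0.13; limma, adjusted p = 0.0275) after TMM scaling and fell by 0.46 on the deposited scale. Gnb2l1, the older symbol of the ribosome-bound scaffold Rack1, rose by 0.81 (SE 0.17) after TMM scaling and had -0.02 on the deposited scale.

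Of 23 other TOP messenger RNAs, which include elongation and initiation factors, 14 rose, 4 fell and 5 missed the threshold. Their median was 0.42 after TMM scaling and -0.41 without it. The elongation factor gene Eef1d rose by 2.11 (SE 0.10) and the initiation factor gene Eif3l by 1.62 (SE 0.06), both also higher on the deposited scale. The noncoding RNAs Snhg8 and Gas5, which host small nucleolar RNAs in their introns, fell by 1.82 (SE 0.14) and by 0.61 (SE 0.12). Snhg8 had 4.66, 4.49, 5.62 and 5.54 FPKM in HA IP, against 35.5, 38.9, 26.5 and 29.0 FPKM in input, with no overlap. Their medians by animal were 0.26, 0.50, 0.86 and 0.23, again highest in animal 581.

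Ribosome biogenesis factors process ribosomal RNA and assemble the subunits. Of 70 such genes, 54 rose, 5 fell and 11 missed the threshold, around a median of 0.62. Without TMM scaling 19 were higher and 32 lower, around a median of -0.20 (all genes 24.3% higher and 62.8% lower, median -0.75). Sbds, which helps release the anti-association factor Eif6 from new large subunits, had 138, 153, 125 and 136 FPKM in HA IP, against 42.2, 43.2, 39.2 and 38.5 FPKM in input. It rose by 2.58 (SE 0.06; limma, adjusted p = 3.17e-08), and by 1.75 on the deposited scale. Rrs1, known from yeast to take part in large subunit assembly, rose by 2.2 (SE 0.12). Heatr3, which in human cells helps import Rpl5 into the nucleus, fell by 0.80 (SE 0.10). Nop10, a subunit of the pseudouridylation complex, fell by 0.36 (SE 0.13; limma, adjusted p = 0.0372) and did not pass without animal 579, 580 or 595.

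Of the 18 genes of the S6 kinase axis, which signals to Rps6 and to TOP messenger RNAs, 6 rose, 9 fell and 3 missed the threshold, around a median of -0.22. Rps6ka2, an RSK kinase gene, had 0.976 to 1.19 FPKM in HA IP, against 14.3 to 16.7 FPKM in input, and its log2 fold change was -2.97 (SE 0.08). Rps6kl1 fell by 2.13 (SE 0.10). The translation repressor gene Eif4ebp1 rose by 1.75 (SE 0.13) and Larp1, whose protein holds TOP messenger RNAs, by 1.15 (SE 0.06), both also higher on the deposited scale. Unlike the ribosomal protein genes, this list was not highest in animal 581, with medians of -0.14, -0.24, -0.33 and -0.33.

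Of 13 genes of ribosome surveillance and the p53 response, 7 rose, 3 fell and 3 missed the threshold, around a median of 0.28. G3bp1, a stress granule protein gene, rose by 1.42 (SE 0.08) and Rps19bp1, whose protein binds Rps19, by 1.35 (SE 0.08). Ltn1, a ubiquitin ligase that acts on proteins stalled on the ribosome, fell by 0.78 (SE 0.08). Cdkn1a, a p53 target, had 1.53, 0.969, 3.45 and 3.67 FPKM in HA IP, against 5.14, 6.54, 16.1 and 5.38 FPKM in input. It fell by 0.96 (SE 0.30; limma, adjusted p = 0.0189), with 3 of 4 animals lower after TMM scaling, and did not pass without animal 580 or without animal 581.

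The genes of the mitochondrial ribosome, which are separate from the cytosolic set, were counted in the same way. Of 77, 67 rose, 3 fell and 7 missed the threshold after TMM scaling, around a median of 1.01. Without it 35 were higher and 19 lower, around a median of 0.19, beside the same shares of all genes. Their median by animal was 0.86, 1.03, 1.21 and 0.89, above that of the canonical cytosolic genes in every animal. The difference between the lists was not tested.

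The spread among the canonical genes was compared with what the files hold on each gene. The SD of the mean log2 ratio among the 77 genes was 0.72. Against the length in the FPKM values, the log2 fold change had a Pearson r of 0.16 and a Spearman rho of 0.19 (n = 77 genes). Over all genes tested, r was -0.08 and rho -0.12. The log2 input FPKM of animals 581 and 595, set against the log2 ratio of the other animals, had r of -0.30 and rho of -0.43 (n = 77 genes), against -0.01 and 0.04 over all genes tested. The points share their annotation and gene length, and a level per length is uncertain where the length is. Over all 8 libraries a canonical gene had a median of 61031 fragments, and 4 genes (Rpl26, Rpl30, Rpl34 and Rps27) had under 5000.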

How the data were processed

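RNA of 8 libraries (4 HA IP and 4 input, paired by animal number) was analysed. Per the labels' protocols, paired-end stranded libraries were made from mRNA. Named in the submitters' processing notes are bcl2fastq 2.17, STAR and HTSeq with genome build mm10. The annotation, the strand setting and the handling of multiply matching reads are not given there. Each library has 1 deposited value per gene symbol, with no unit named. The values were read as FPKM made by the authors, since 1 whole length per gene and 1 whole total per library turned all 142235 values above 0 into whole fragments within 0.001. Recovered fragments were 99.91% to 99.96% of each total. Fragments served for the filter, shares and totals, and no count test was run on them.

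The comparison used limma 3.58.1 (R 4.3.3) with an intensity trend on log2(FPKM / TMM factor + 0.1), HA IP minus input, animal as a block. The pseudocount shrinks the fold changes of weakly expressed genes. TMM factors were computed without weights, trimming 0.3 of M-values and 0.05 of A-values at either end. Genes needed 0.246 CPM (10 fragments in a library of median size) in at least 4 libraries and 15 fragments in all. P-values are two-sided and adjusted over the 15605 genes tested. The block was used because both libraries of a number come from the same animal; correlations of deviations from group means were 0.22 to 0.40 within animals and -0.27 to 0.11 between them. The fit was tested on simulated data in which few genes changed, as many up as down. That setting differs from these data, where most genes were called, so it cannot test the TMM scaling here.

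Alternatives were no block, no scaling, upper-quartile scaling, pseudocounts of 1 and 0.01, other filters, no trend, each animal left out and, added after seeing the data, scaling to the median canonical ribosomal protein gene. The members, lists and rules were chosen with earlier results of these data known. Named were Rpl22, the paralog members with a value above 0, the 6 highest and 6 lowest canonical genes by fold change and the 4 with the most fragments in HA IP. Genes with set roles, the 2 highest and 2 lowest called genes of each pathway list and the 2 pseudogenes with the most fragments were also named. Rpl6, Rpl15, Rps4x, Rps25, Rps27, the genes called in every setting and those with few fragments were named after their values were seen. Protein sequences were not used here. A gene that the rule names is not reported here.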

Additional observations from a re-analysis of the deposited data

Results flagged for a closer look

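In 4 of 109 groups of 4 libraries, 1 library lay apart from the other libraries of its group, by a gap to its neighbour that exceeded Dixon's critical value for the group's range. Chance alone marks about 1 in 20 such groups. Rpl3l had 0.217 FPKM in the HA IP library of animal 580, against 0.0741 to 0.0915 in the other HA IP libraries. Rrs1, a ribosome biogenesis gene, had 45.7 FPKM in the HA IP library of animal 581, against 25.9 to 26.2 in the others. Larp1 had 25.7 FPKM in the input library of animal 580, against 27.0 to 27.1 in the others. Cdkn1a had 16.1 FPKM in the input library of animal 581, against 5.14 to 6.54 in the others. No canonical ribosomal protein gene among those named was marked in this way.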

How the results depend on the processing

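Scaling between libraries mattered most. On the deposited scale 3791 of all genes tested (24.3%) were higher in HA IP and 62.8% lower. Of the canonical genes 4 were higher and 53 lower, with a median of -0.81. Upper-quartile scaling gave 12 canonical genes higher and 38 lower, against 33.5% and 51.9% of all genes. On the deposited scale the sign turned for Rpl22 (-0.14), Rps27l (-0.33), Rpl4 (-0.08), Rplp0 (-0.37), Rplp2 (-0.38), Rpsa (-0.39), Rpl5 (-0.50), Rpl11 (-0.30), Fau (-0.46), Gnb2l1 (-0.02) and Rps19-ps3 (-0.50), and with upper-quartile scaling for Fau (-0.04), Rps19-ps3 (-0.08) and Rpl5 (-0.08); these alternatives leave out the TMM shift. Of genes that did not pass, Rpl3l also turned without animal 580 (-0.33) or without TMM scaling (-0.22), as did Rps6 without animal 595 (0.09). Rpl22l1 fell under every alternative run, and Rpl22 rose under all but the deposited scale. Without the replicate block, the paired fit's 25 higher and 26 lower canonical genes became 19 and 24, against 41.8% and 41.4% of all genes. Rplp0, Rplp2, Rpsa, Fau, Rps19-ps3 and Cdkn1a no longer passed without the block. The within-library differences of -0.854 (share, percentage points), 0.65 (Rpl22 against the other genes) and -1.90 (Rpl22l1 against Rpl22) keep their value without pairing, where the smallest exact permutation p of 4 against 4 libraries is 0.0286. Scaling to the median canonical gene, chosen after seeing the data, gave 18 canonical genes higher and 25 lower, against 34.5% and 36.9% of all genes.

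With 1 animal left out at a time, canonical genes had 17 to 29 higher and 23 to 38 lower, with a median of -0.23 to 0.19, and all genes 6397 to 6617 higher and 6284 to 6543 lower. Rpl22 ranged over 0.59 to 0.77 and Rpl22l1 over -1.41 to -1.03. The share ranged over -1.07 to -0.754 percentage points, Rpl22 against the other genes over 0.60 to 0.77 and Rpl22l1 against Rpl22 over -2.01 to -1.80. The lowest median and the 38 lower calls came without animal 581. Libraries of 33834388 to 53625125 fragments leave Rpl39l and Rpl31-ps12 with too few fragments to test and Rpl3l with 48 in HA IP and 67 in input, and 4 animals cannot bring an exact paired test below 0.13.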
